A study of Homo sapiens with 6 samples.

Results

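The comparison set 2 H1299 clones stably transfected with Lin-28B directly against 2 H1299 clones stably transfected with Ago2, with no control array. These were the 4 of the 6 arrays of the series whose titles name a Lin-28B or an Ago2 clone. H1299 is an established cell line from a human non-small cell lung cancer, given as lung adenocarcinoma in the labels. Each array was an Illumina human HT-12 BeadChip hybridized with biotin-labelled cRNA made from total RNA of exponentially growing cells. The other 2 arrays, 1 control line for each transfection, were left out of the fit and are given only where stated. Each line is a stably transfected derivative of H1299, so what sets 1 clone apart from another is measured together with its transfection. The labels do not give the vectors, the promoters or how the clones were picked.

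LIN28B and AGO2 act at different steps of the microRNA pathway. LIN28B is an RNA-binding protein that binds precursors of the let-7 microRNAs and blocks their maturation, so that mRNAs repressed by let-7 are relieved. AGO2 is the Argonaute protein that carries mature microRNAs, let-7 included, in the silencing complex, and it can cut target RNA. A direct comparison asks which transcripts separate the clones of one transfection from those of the other, and it does not depend on either control line.

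The files pair the probes with no gene names, so results are given per probe. The levels of LIN28B and AGO2, a check of the clone labels where the transfected sequence holds the probe, were not analysed here, and neither were let-7 targets or markers of lung epithelium and of other cell types. Of 48803 probes, 25268 (51.8%) exceeded the median of the array in 2 or more of the 4 clones and were kept. The median deposited intensity of an array lay between 61.7 and 64.2. Differences are Lin-28B minus Ago2 on the quantile-normalized log2(intensity + 32) scale, which understates differences of dim probes, and 1 on this scale is 2-fold. With 2 clones a group, the number of arrays limits the precision. The titles name 2 different clones in each group, so the spread behind the p-values holds differences between clones together with technical ones. These parts cannot be told apart, because each clone has 1 array. Nothing in the labels says that the clones were cultured or hybridized at separate times, and the spread was taken from these arrays alone.

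The Lin-28B clones and the Ago2 clones were about as far from each other as the 2 Ago2 clones were from one another. The SD over kept probes of the log2 difference was 0.224 between the 2 Lin-28B clones, the closest of the 6 pairs of arrays. It was 0.311 between the 2 Ago2 clones, the most distant pair. The 4 pairs of 1 Lin-28B and 1 Ago2 clone lay between these values, from 0.255 for Lin-28B clone 2 with Ago2 clone 1 to 0.302 for Lin-28B clone 1 with Ago2 clone 1. Ago2 clone 1 was thus nearer to both Lin-28B clones than to the other Ago2 clone, and so was Ago2 clone 2, with SDs of 0.282 and 0.287. Split over the 3 degrees of freedom among 4 arrays, the transfection held 36.8% of the sum of squares, the difference between the Ago2 clones 41.6% and that between the Lin-28B clones 21.6%. With a clone left out, fewer degrees of freedom remain and an even share is larger, so the shares that follow are not comparable with 36.8%. The transfection's share was 64.7% without Ago2 clone 1 and 63.6% without Ago2 clone 2, which leave out the difference between the Ago2 clones. It was 40.5% without Lin-28B clone 1 and 45.8% without Lin-28B clone 2.

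**Figure D1:**
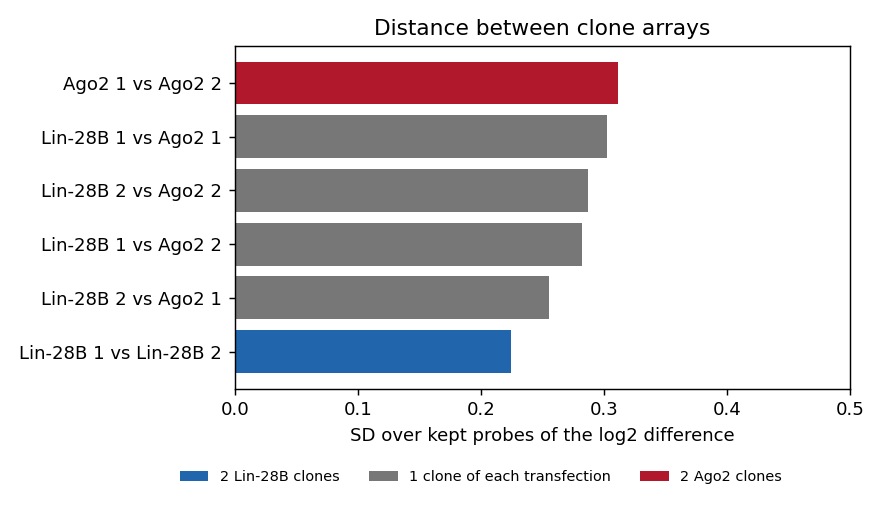
Bars give the SD over 25268 kept probes of the log2 difference between 2 arrays, for each of the 6 pairs of clones. The 2 Lin-28B clones are closest (0.224), the 2 Ago2 clones farthest apart (0.311), and the 4 pairs that cross the transfections lie between them.

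The same order held among brighter probes and was lost among dim ones, where all pairs lay close together. Kept probes were split by mean signal into 5 equal groups. In the dimmest group, with a median intensity of 63.7, the SD was 0.112 between the Lin-28B clones, 0.116 between the Ago2 clones and 0.112 to 0.118 across the transfections. In the brightest group, with a median intensity of 1288, it was 0.295 between the Lin-28B clones, 0.426 between the Ago2 clones and 0.345 to 0.421 across. The dim probes lay near the array medians.

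**Figure D2:**
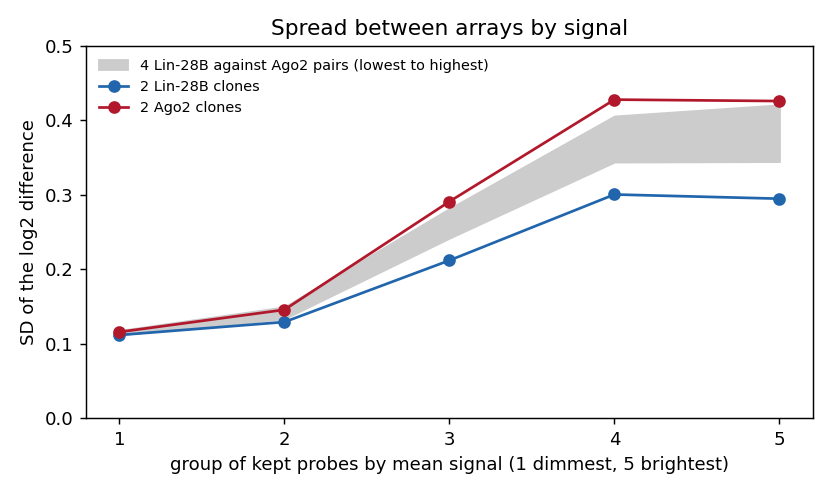
The SD of the log2 difference between 2 arrays is plotted for 5 equal groups of the kept probes by mean signal. The grey band spans the 4 pairs across transfections, and in the 3 brighter groups of probes it lies above the Lin-28B clones and below the Ago2 clones.

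Part of the difference between clones ran across the transfections. The 2 Lin-28B clones differed at least 2-fold in 67 probes, of which 18 were higher in clone 1 and 49 in clone 2. The 2 Ago2 clones did so in 339 probes, 181 higher in clone 1 and 158 in clone 2, with a largest difference of 3.68 on the log2 scale. Both pairs differed at least 2-fold for 28 probes, 41.8% of the Lin-28B list and 8.26% of the Ago2 list. Of all kept probes, 1.34% were in the Ago2 list and 0.265% in the Lin-28B list. The 28 were brighter than most, with a median intensity of 545 against 107 over all kept probes. For 25 of these 28, the clone with the higher signal carried a different number in the 2 transfections. Lin-28B clone 2 and Ago2 clone 1 were the higher ones for 20 probes, and Lin-28B clone 1 and Ago2 clone 2 for 5. Over all 25268 kept probes the 2 clone differences, each clone 1 minus clone 2, correlated at -0.208 (Pearson). This describes probes of 4 arrays normalized together, which are not independent replicates. The 2 lists share no array, and the clone numbers are names that imply no pairing. Over the 28 probes the median size of the difference between transfections was 0.35 on the log2 scale. Groups did not overlap for 1 of the 28, against 36.0% of all kept probes. Choosing probes with wide differences between clones makes such a low count likely.

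Between the transfections, no probe passed the test. In limma with Benjamini-Hochberg adjustment over 25268 probes, 0 probes (0%) had an adjusted p under 0.05, with 0.323 as the lowest value. At an unadjusted p under 0.05 in limma there were 1809 probes (7.16%), where a share of 0.05 would pass under the model with no difference. Of the 1809, 953 were higher in the Lin-28B clones (3.77%) and 856 lower (3.39%). The direction of this majority turned with the scaling: the share higher in the Lin-28B clones was 52.7% here, 49.3% with no normalization, 46.0% with cyclic loess, 45.4% with arrays shifted to a common median, and 46.6% with the intensity trend. These probes lay among the brighter ones: they made up 0.554% of the dimmest group, 7.32% of the middle group and 13.4% of the brightest. The median size of their difference was 0.41, against 0.094 over all kept probes, and 1762 of the 1809 differed less than 2-fold between group means. The moderation with an intensity trend called 2 probes, both described below, and robust moderation called 0. Of the kept probes, 9092 (36.0%) had groups that did not overlap, 4810 (19.0%) with the Lin-28B clones higher and 4282 (16.9%) with them lower. The median gap between the nearest clones of the 2 groups was 0.071. Of the 6 arrangements of 2 against 2 arrays, 2 leave the groups apart, so a share near 2 in 6 arises without any difference.

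The intervals describe precision within these arrays. The spread behind them comes from 2 clones a group and cannot be split into clone and technical parts. The intervals therefore do not bound a difference between transfections. The median of the distance from the estimate to either end of the 95% confidence interval, from limma's moderated variance and not adjusted for the number of probes, was 0.29 on the log2 scale. For 23881 probes (94.5%) the interval lay wholly within 2-fold in both directions. The other 1387 probes had intervals reaching past 2-fold on at least 1 side. The share within 2-fold was 100% in the dimmest group and 87.7% in the brightest, where that median distance was 0.40. Probes of the dimmest group lay near the array medians, where the offset of 32 narrows differences and a 2-fold change could hardly show. With an offset of 1 in place of 32 the median distance over kept probes was 0.37.

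Large differences were few, and more of them were higher in the Ago2 clones. Group means lay at least 2-fold apart for 62 probes (0.245%), of which 16 were higher in the Lin-28B clones (0.0633%) and 46 were higher in the Ago2 clones (0.182%). The count was 98 without Lin-28B clone 1, 107 without Lin-28B clone 2, 175 without Ago2 clone 1 and 147 without Ago2 clone 2, when 1 array stands for a group. The share higher in the Lin-28B clones was 25.8% with all clones and 38.8% without Lin-28B clone 1. For 4 of the 62 the groups overlapped, and for 21 the clones of at least 1 transfection were themselves at least 2-fold apart. Over all 25268 kept probes the groups did not overlap for 36.0%, and only 378 of the 25268 had such clones. Means chosen to lie far apart make overlap rare. In the central 99% of kept probes the difference lay from -0.77 to 0.64. A stricter rule of size asked that all 4 pairs of 1 Lin-28B and 1 Ago2 clone differ at least 2-fold in the same direction. It was met by 7 probes (0.0277%), 2 higher in the Lin-28B clones (0.00792%) and 5 higher in the Ago2 clones (0.0198%). Without Lin-28B clone 1, where 2 pairs remain, it was met by 20 probes higher and 19 lower in the Lin-28B clones. These 7 were among the 18 probes with the smallest p, and 6 of them had a 95% interval wholly beyond 2-fold, as did no other kept probe. Both follow largely from choosing the 7 by size on the same values, so they are no separate support. The intervals are not adjusted for that choice. The rule has a threshold at a gap of 1 on the log2 scale. The last probe inside had a gap, signed as the difference, of -1.06, and the first outside had one of -0.98 with a difference between means of -1.44. With an offset of 100 in place of 32 the rule left 4 of the 7.

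**Figure D3:**
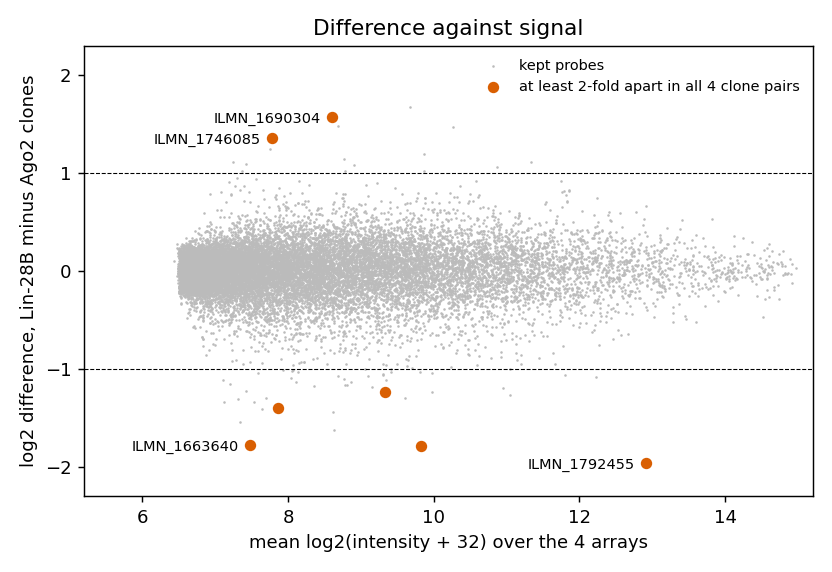
Each point is 1 kept probe, with the mean log2(intensity + 32) of the 4 arrays on the x axis and the log2 difference, Lin-28B minus Ago2 clones, on the y axis. Dashed lines mark 2-fold, and the 7 coloured probes are those at least 2-fold apart in all 4 clone pairs, 2 above and 5 below.

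Of the 5 probes higher in the Ago2 clones, the largest gap was that of ILMN_1792455, a bright probe. It measured 3543 and 4359 in Lin-28B clones 1 and 2, and 15358 and 14930 in Ago2 clones 1 and 2. Both Ago2 clones were above both Lin-28B clones, and the clones of a transfection lay close together. The means were 3951 ± 577 (SD, n = 2) and 15144 ± 302 (SD, n = 2). The log2 difference was -1.96 ± 0.15 (SE, 95% interval from -2.35 to -1.57), with an adjusted p of 0.613 in limma. On the normalized scale with the offset, the Lin-28B clones were 3.90-fold lower.

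ILMN_1663640 was near the array medians in the Lin-28B clones and clearly above them in the Ago2 clones. It measured 66.6 and 61.7 in Lin-28B clones 1 and 2, and 305 and 294 in Ago2 clones 1 and 2. It passed the filter through the Ago2 clones. In the Lin-28B clones it lay near the array medians, where differences between clones were small for most probes, so its small spread there carries little weight. It had the smallest p of the comparison. The log2 difference was -1.78 ± 0.087 (SE, 95% interval from -2.01 to -1.55), with an adjusted p of 0.323 in limma. Because the Lin-28B clones lay near the array medians, the size of the difference depends on the offset, from -1.28 with an offset of 100 to -2.20 with an offset of 1. ILMN_1663640 and ILMN_1792455 were the 2 probes that passed with an intensity trend in limma's moderation, both at an adjusted p of 0.0161. Over the alternatives that kept them their adjusted p in limma ranged from 0.0161 to 1.00. The filter above the median on all 4 arrays removed ILMN_1663640.

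Higher in the Lin-28B clones were ILMN_1690304 and ILMN_1746085, the only 2 in that direction by the rule of size. ILMN_1690304 measured 561 and 723 in Lin-28B clones 1 and 2, and 188 and 205 in Ago2 clones 1 and 2. The lower of the Lin-28B clones was well above the higher of the Ago2 clones. Its log2 difference was 1.57 ± 0.16 (SE, 95% interval from 1.16 to 1.98), with an adjusted p of 0.613 in limma. On the normalized scale with the offset, the Lin-28B clones were 2.97-fold higher. ILMN_1746085 measured 338 and 293 in Lin-28B clones 1 and 2, and 103 and 110 in Ago2 clones 1 and 2. The groups were again apart, and the clones of each group differed little. Its log2 difference was 1.36 ± 0.11 (SE, 95% interval from 1.07 to 1.65), 2.56-fold higher on that scale, with an adjusted p of 0.613 in limma. The other 3 probes of the 7, all higher in the Ago2 clones, had log2 differences from -1.78 to -1.24 and adjusted p-values of 0.613 in limma.

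The 2 control arrays, which the choice of these 7 probes did not use, lay nearer to the clones of the other transfection for most of them. In the deposited intensities on a log scale, the Ago2 control was nearer to the Lin-28B clones for all 7, and the Lin-28B control was nearer to the Ago2 clones for 6. Normalized over all 6 arrays the second count was 7. ILMN_1690304 measured 309 in the Lin-28B control and 836 in the Ago2 control. ILMN_1746085 measured 142 in the Lin-28B control and 316 in the Ago2 control, close to the Ago2 clones and to the Lin-28B clones respectively. ILMN_1663640 measured 939 in the Lin-28B control and 65.9 in the Ago2 control, and ILMN_1792455 measured 10030 and 1597. The probe that turned with the scaling was 1 of the 3 not named, with 832 and 769 in the Lin-28B and Ago2 controls, between mean intensities of 458 in the Lin-28B clones and 1671 in the Ago2 clones. Each control is 1 array, so these values have no replicate check.

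**Figure D4:**
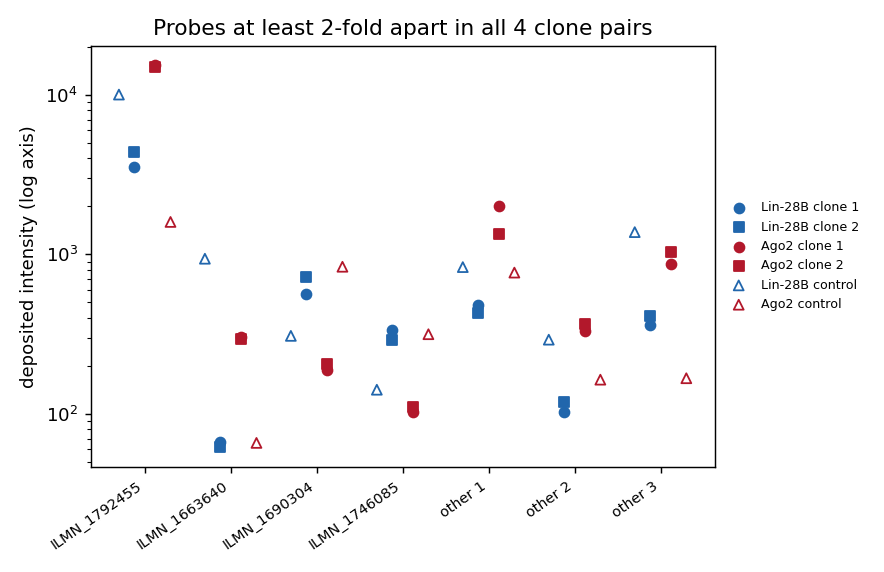
Deposited intensity on a log axis of the 7 probes at least 2-fold apart in all 4 clone pairs, with filled symbols for the clones and open triangles for the single control arrays. In each probe the clones of the 2 transfections are apart. On this scale the Ago2 control lies nearer to the Lin-28B clones in all 7 and the Lin-28B control nearer to the Ago2 clones in 6, with the probe at "other 1" as the exception.

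Over all kept probes the opposition was weaker. The difference between the controls, Lin-28B minus Ago2, had the opposite sign to that between the clones for 56.7% of 25268 probes and for 71.0% of the 62 probes with means at least 2-fold apart. Across the 25268 probes both differences correlated at -0.297 (Pearson), which describes 6 arrays normalized together and 1 control a side. By the SD over probes, both Lin-28B clones were nearer to the Ago2 control (0.328 and 0.355) than to their own (0.459 and 0.424). Ago2 clone 1 was nearer to the Lin-28B control (0.392) than to its own (0.420), and Ago2 clone 2 was nearer to its own (0.388 against 0.435). Pairs of clones in the same normalization over 6 arrays had SDs from 0.222 (Lin-28B clones) to 0.308 (Ago2 clones). Every clone was thus nearer to each other clone, also across the transfections, than to either control. Why the controls lie this way was not tested. Whether each control array belongs to the transfection in its label was not checked here, and the control values above are those of the arrays so labelled.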

How the data were processed

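The deposited table holds linear probe intensities, with 1 column per array. Per the labels' protocols, RNA was extracted with Trizol and labelled with an Ambion MessageAmp kit. How the authors scanned, background-corrected and normalized them is not stated in the sources used here. Groups and clone numbers come from the sample titles. Values under 1 were raised to 1, and log2(intensity + 32) of the 4 clone arrays was quantile normalized. Probes exceeding the median of the array in 2 or more clones were tested in limma 3.58.1 under R 4.3.3 (lmFit, eBayes, two-sided) with 2 residual degrees of freedom, 2.50 prior degrees of freedom and Benjamini-Hochberg adjustment. The procedure was tested on simulated data drawn from limma's own fitted spread, with added differences larger than any observed here. That run does not show how well differences of the observed size would be found. An exact permutation test of 2 against 2 has 6 arrangements and a smallest two-sided p of 0.333, so none was used. The comparison, its rules and 38 gene lists were chosen with earlier results of these data known. The gene lists and the averaging of probes by gene needed gene names and were not analysed here. The probes named are those with the largest gap between groups, at most 2 in each direction. Alternatives covered the offset, the normalization, the filter, the moderation, each clone left out and the clone number as a block.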

Additional observations from a re-analysis of the deposited data

How the results depend on the processing

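The absence of calls held under all alternatives run except the intensity trend, which gave 2. With each clone left out in turn the count was 0, with a smallest adjusted p in limma between 0.151 and 1.00. Such a fit has 1 residual degree of freedom, and the lone clone is assumed to vary like the other pair. The count of probes at least 2-fold apart in all clone pairs was 14 with an offset of 1, 4 with an offset of 100, and 35 to 98 with a clone left out, where 2 pairs remain in place of 4. All 7 probes passed with an offset of 1 and with each clone left out, and 4 of them passed with an offset of 100. Their choice by size made the passes with a clone left out nearly certain. With the filter above the median on all 4 arrays, 6 of the 7 were left, and ILMN_1663640 was removed. Group means at least 2-fold apart numbered 95 with an offset of 1 and 30 with an offset of 100. At an unadjusted p under 0.05 in limma there were 2883 probes with no filter, 1068 above the 70th percentile, 748 without Lin-28B clone 1 and 1136 without Lin-28B clone 2. None of the 4 named probes changed sign in an alternative that kept it, which their choice by the largest gaps made nearly certain. The clone number as a replicate block gave 0 calls and 1415 probes at an unadjusted p under 0.05 in limma. Clone deviations of the same number correlated at -0.208, so the crossed pairing was added after seeing the data, and it gave 0 calls and 2289 probes at an unadjusted p under 0.05 in limma. Either block left 1 residual degree of freedom, and the clone numbers imply no pairing. Averaging of probes by gene and medians of gene lists were not run.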
